A study of Mus musculus with 3 samples.

Results

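The C/EBP transcription factor genes of the mouse, Cebpa, Cebpb, Cebpd, Cebpe and Cebpg, are 5 of the 21887 protein-coding genes that RefSeq lists for GRCm38.p6, the mm10 assembly. They were taken by name, and every deposited ATAC-seq region that touched the span of a gene or the 100 kb on either side of it was assigned to that gene. All 5 genes were found. Each region counted once, their windows held 205 of 182233 listed regions at 0 h, 208 of 178055 at 6 h and 193 of 145044 at 72 h. The windows of Cebpa and Cebpg overlap on chromosome 7 and had 40, 42 and 33 regions in common at 0, 6 and 72 h, so the 5 windows form 4 separate stretches of genome.

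The cells were the ECOMG myeloid progenitor line with the genotype FKBP12F36V_NIPBL, in which NIPBL, the protein that loads cohesin onto DNA, carries a degron, a tag through which the small molecule dTAG leads to breakdown of the protein. ATAC-seq, which marks accessible DNA through insertions of a transposase, was run on 50000 cells per library. Cells of the 0 h library had no dTAG, those of the 6 h library and the 72 h library did, and all grew in medium with GM-CSF and β-estradiol. Each time has 1 library, and the 0 h library serves both comparisons. There was therefore no test between times, and dTAG, time in culture and the single library cannot be told apart. The labels do not say whether the line is 1 clone, and they give no library of cells that lack the tag. In a bulk library, more cells with an open site and a more open site in each cell cannot be told apart either.

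C/EBP proteins bind DNA as dimers through a basic leucine zipper and are known as the factors that direct progenitors into the granulocyte and monocyte lines. C/EBPα is needed for the step into committed granulocyte and monocyte progenitors, C/EBPβ for granulocyte production under stress and for macrophage function, C/EBPδ for acute inflammatory responses, and C/EBPε for the last steps of granulocyte maturation. C/EBPγ lacks a typical activation domain and acts mainly as a dimer partner. In blood cells both Cebpa and Cebpb are known to be controlled by distant downstream enhancers, and Cebpe by an enhancer a few kilobases downstream.

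RefSeq (GRCm38.p6) sequences of the 250 bases before the start were at hand for Cebpa (chr7:35119043-35119292, plus strand), Cebpb (chr2:167688665-167688914, plus strand) and Cebpg (chr7:35056567-35056816, minus strand). They are printed because each lies wholly or almost wholly within the region listed across the start of its gene at all 3 times. Capitals in Cebpa mark the C/EBP half-site TTGCG and further on a TATA box, TATAAA. They mark TGACG, the half-site of a cAMP response element (CRE), or its reverse complement CGTCA, in Cebpb. In Cebpg they mark ATTGG, the reverse complement of the CCAAT box.

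Cebpa: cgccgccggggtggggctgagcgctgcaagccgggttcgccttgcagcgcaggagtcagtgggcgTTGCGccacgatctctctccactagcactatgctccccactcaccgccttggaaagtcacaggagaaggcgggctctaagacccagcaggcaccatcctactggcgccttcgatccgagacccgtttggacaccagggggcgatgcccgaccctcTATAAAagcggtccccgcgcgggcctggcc

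Cebpb: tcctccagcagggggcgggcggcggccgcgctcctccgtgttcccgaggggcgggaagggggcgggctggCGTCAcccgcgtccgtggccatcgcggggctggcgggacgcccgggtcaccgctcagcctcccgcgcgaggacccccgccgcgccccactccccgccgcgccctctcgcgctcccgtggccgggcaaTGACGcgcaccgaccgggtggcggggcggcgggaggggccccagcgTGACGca

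Cebpg: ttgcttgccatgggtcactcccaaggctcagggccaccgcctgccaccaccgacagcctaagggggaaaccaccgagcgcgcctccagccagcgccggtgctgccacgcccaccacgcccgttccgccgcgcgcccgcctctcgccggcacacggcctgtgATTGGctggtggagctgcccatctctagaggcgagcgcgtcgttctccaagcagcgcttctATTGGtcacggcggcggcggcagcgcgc

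Both strands were searched for 6 motifs, and each share below is over the 32851 mouse promoter stretches of the same length. TTGCG stood once in the Cebpa stretch, with its first letter at position -185 (the start is counted from the base after -1), and is present in 14.5% of all stretches. TATAAA stood once in Cebpa, at -30, and is present in 12.4%. TGACG stood at 3 places in Cebpb, beginning at -180, -53 and -7, and is present in 17.8%. CCAAT stood at 2 places in Cebpg, beginning at -89 and -28, and is present in 33.8%. GGGCGG, a GC box that binds SP factors, stood at 5 places in Cebpb, is present in 32.7% of all stretches and is left in lower case; 2 of the 5 places overlap. The full C/EBP site searched, TTGCNNAA, with N for any base, stood in none of the 3 and is present in 9.56%. Guanine and cytosine made up 66.4% of the Cebpa stretch, 81.6% of that of Cebpb and 70.8% of that of Cebpg.

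All 5 genes had a broad accessible region across the start at all 3 times, and each of these regions lay in 1 piece at 0 h and 6 h and in several pieces at 72 h. The positions of the starts of Cebpd (plus strand) and Cebpe (minus strand) rest on the known direction of these genes, which the tables used here do not give. The fold of a region is the ratio of its summit to the background of its own library, as the authors' peak caller wrote it. Folds are set side by side for the 3 times but are not compared as amounts. Rank, used below, is the percentile of a locus by its highest fold among the 98083 loci listed at all 3 times, where a locus is a stretch covered by a region of any list.

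At Cebpa (chromosome 7, 35119293 to 35121928) the start region was 1689 bp long with a fold of 129 at 0 h, and 1722 bp long with a fold of 141 at 6 h. By 72 h it was a region of 1238 bp with a fold of 176, followed by a piece of 97 bp with a fold of 5.46. At Cebpb (chromosome 2, 167688915 to 167690432), a gene with no intron, the start region was 1553 bp with a fold of 30.2 at 0 h and 1586 bp with a fold of 34.7 at 6 h. By 72 h Cebpb had 3 pieces, of 837, 277 and 109 bp with folds of 47.6, 15.6 and 11.7. The long region over most of this gene was thus listed as separate stretches, the one over the start the highest.

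At Cebpd (chromosome 16, 15887286 to 15889545) the start region was 1650 bp with a fold of 108 at 0 h and 1632 bp with a fold of 122 at 6 h. By 72 h it was listed as 836 bp with a fold of 135 over the start and 659 bp with a fold of 18.7 inside the gene. At Cebpg (chromosome 7, 35046422 to 35056566) the region was 1074 bp with a fold of 94.5 at 0 h and 1090 bp with a fold of 126 at 6 h. By 72 h Cebpg had 668 bp with a fold of 140 over the start and 228 bp with a fold of 8.59 further into the gene. In all of these 4 genes the piece over the start had the highest fold at 72 h.

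Cebpe (chromosome 14, 54710363 to 54712174) differed in this. Its region was 1337 bp with a fold of 46.9 at 0 h and 1352 bp with a fold of 61.8 at 6 h. By 72 h the piece over the start was 692 bp with a fold of 31.2, and an upstream piece of 405 bp had the higher fold, 42.2. For Cebpe the start locus had ranks of 85.7, 88.4 and 78.7 at 0, 6 and 72 h. The ranks were 98.2, 97.6 and 98.3 for Cebpa, 96.8, 96.4 and 96.2 for Cebpd, and 95.5, 96.7 and 96.6 for Cebpg. The Cebpb start ranked lower than those 3, at 76.2, 77.4 and 81.1.

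Further regions lay on these genes or within 1 kb of them. With the start pieces included, Cebpa had 7, 6 and 6 such regions at 0, 6 and 72 h, Cebpb 4, 3 and 5, Cebpd 5, 6 and 7, Cebpe 4, 5 and 6 and Cebpg 2, 4 and 3. Just upstream of Cebpb, a locus at -0.57 kb had folds of 18.1, 34.7 and 41.4 and ranks of 60.3, 77.4 and 78.3. Just upstream of Cebpg, a locus at -0.75 kb had folds of 18.1, 15.8 and 32.8 and ranks of 60.3, 53.0 and 73.2. Just past the end of Cebpd, a locus 2.86 kb from the start had folds of 30.2, 39.2 and 44.5 and ranks of 76.2, 80.1 and 79.8. Neither of the differences between 72 h and 0 h at Cebpb and Cebpg reached 20 points.

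The 5 start regions and a region at the near end of Acin1, 25.6 kb downstream of Cebpe, are the 6 regions of at least 1000 bp in the windows at 0 h. None of the 6 was in 2 or more pieces at 6 h, against 31.8% of the 2285 such regions of the whole 0 h list. All 6 were in 2 or more pieces at 72 h, against 67.7% of the whole list, so the split at 72 h was the common outcome for broad regions. The Acin1 region was 1112 bp with a fold of 109 at 0 h and 1127 bp with a fold of 115 at 6 h. Its pieces at 72 h were 580 bp with a fold of 147 and 405 bp with a fold of 30.4.

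Most accessible sites around these genes were listed at every time. Of the 253 loci in the windows 138 (54.5%) were listed at all 3 times, against 41.3% of the 237542 loci of the genome. The upper 50% of each list by −log10 q counts as strong. A strong region of 0 h is lost when nothing in the later list overlaps it, and a strong region of the later list is gained when nothing at 0 h overlaps it. At 6 h, 1 of 122 strong regions was lost (0.82%, exact 95% binomial interval 0.0208 to 4.48%, counting error only), against 2.48% of the whole list. At 6 h, 1 of 120 strong regions was gained (0.833%, 0.0211 to 4.56%), against 1.71% of the whole list. At 72 h, 8 of 122 were lost (6.56%, 2.87 to 12.5%), against 15.7% of the whole list. At 72 h, 7 of 122 were gained (5.74%, 2.34 to 11.5%), against 7.21% of the whole list. The 8 lost regions had folds between 6.8 and 9.83 at 0 h, and none with a fold of at least 10 was lost. The share lost among all regions of that fold in the 0 h list is not at hand, so this has no background beside it. With lists of equal length there were 3 losses and 14 gains at 72 h. No share of the whole list is at hand for that setting, so these counts have no background beside them. A site absent from a list can still hold signal under the caller's minimum.

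The number of listed regions differed in direction between the windows, but a split region counts once per piece. At 72 h the Cebpb window had 65 regions, against 64 at 0 h, and the Cebpd window had 26, against 25. The start region made up 3 of these at Cebpb and 2 at Cebpd at 72 h, against 1 each at 0 h. The higher counts at these genes therefore do not show more sites. The other windows had fewer at 72 h than at 0 h, with 39 against 48 for Cebpa, 36 against 44 for Cebpg and 60 against 64 for Cebpe. With regions within 200 bp merged, the windows together held 169, 176 and 158 regions at 0, 6 and 72 h. With the lists brought to equal length the windows together held 160, 185 and 193 regions at 0, 6 and 72 h, more at 72 h than at 0 h in place of the 193 against 205 of the full lists. A higher count at 72 h was found in 17.8% of the 17461 coding-gene windows with at least 10 regions at 0 h, and the median ratio of 72 h to 0 h over those windows was 0.844. At 6 h the counts were 63 for Cebpb, 25 for Cebpd, 50 for Cebpa, 46 for Cebpg and 66 for Cebpe, so Cebpa, Cebpg and Cebpe had more regions than at 0 h, as did 37.5% of coding-gene windows.

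High regions were more numerous in the Cebpb window at 72 h. It held 28, 30 and 46 regions with a fold of at least 10 at 0, 6 and 72 h, each fold taken within its own list. That is 1.64 times as many at 72 h as at 0 h (95% interval 1.01 to 2.73 from the split of both counts, counting error only). The interval treats neighbouring regions of 1 library per time as independent and was given for the largest of the 5 ratios. It includes the median ratio of coding-gene windows given below. The ratio was 1.46 (38 against 26) when regions within 200 bp were merged. Over all 5 windows there were 92, 95 and 116 such regions, and in the whole lists 66637, 69502 and 71819. A ratio of at least 1.5 was found in 7.49% of the 12556 coding-gene windows with at least 10 such regions at 0 h, whose median ratio was 1.11. The other ratios of 72 h to 0 h were 1.24 for Cebpa, 1.19 for Cebpg, 1.1 for Cebpe and 1.07 for Cebpd, near that median. At 6 h a ratio of at least 1.5 was reached in 0.287% of windows and in none of the 5, whose ratios of 6 h to 0 h ran from 0.857 for Cebpd to 1.12 for Cebpa and Cebpg.

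**Figure D1:**
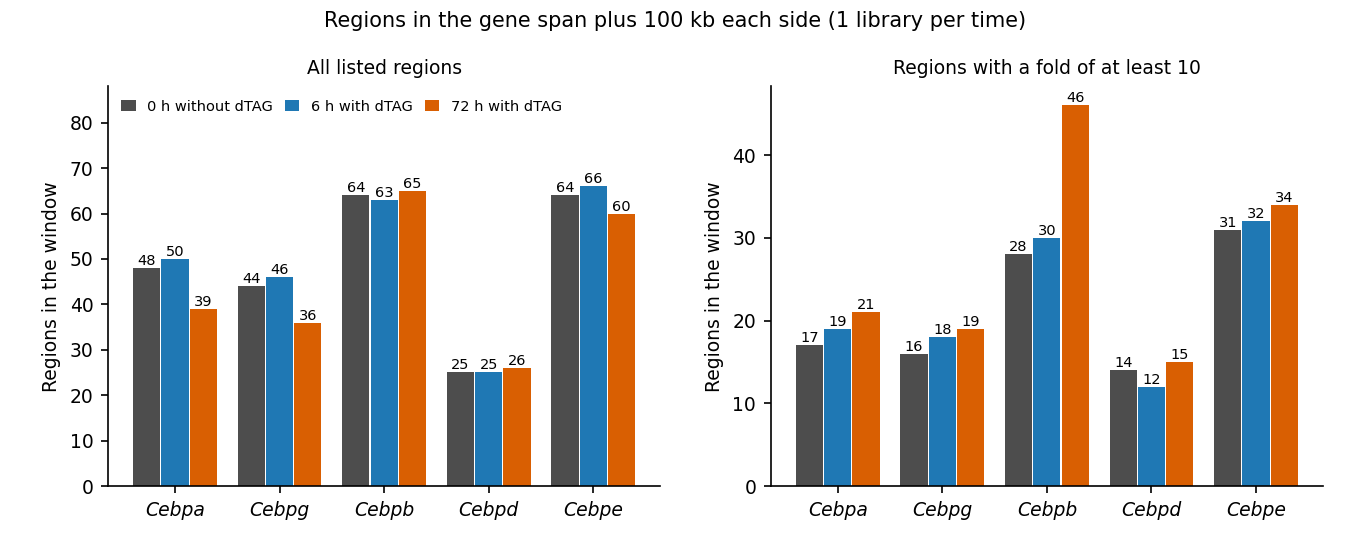
Bars give the number of listed regions (left) and of regions with a fold of at least 10 (right) in the window of each gene, in 1 library each at 0 h without dTAG, 6 h with dTAG and 72 h with dTAG. The bars of fold 10 or more for Cebpb stand at 28, 30 and 46, while those of the other 4 genes differ by at most 4 between 0 h and 72 h.

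The Cebpb window gained 6 of the 7 strong regions that appeared at 72 h, which is 12.8% of its 47 strong regions, against 7.21% of the whole list. The count was 3 when regions within 200 bp were merged and 10 when the lists were brought to equal length. Shares of the whole list are not at hand for these settings. Of these 6, 4 lay downstream of the gene. The highest lay 53.8 kb downstream (chromosome 2, 167742572 to 167742892), just past the noncoding gene Gm52570. It was not listed at 0 h, had a fold of 3.77 at 6 h and was 321 bp long with a fold of 48.4 at 72 h. Another pair stood 72.9 and 73.2 kb downstream with folds of 14.8 and 10.1 at 72 h and had no region at 0 h or 6 h. The last downstream one, at 87.8 kb inside the noncoding gene Gm32287, had a fold of 14.8 at 72 h and a weak region at 6 h.

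Upstream, Cebpb gained a region at -47.1 kb with a fold of 12.5, also listed weakly at 6 h, and one at -2.2 kb with a fold of 9.37. Negative distances are upstream of the start throughout. At 6 h the only strong gain of all 5 windows was a region at -47.7 kb of Cebpb with a fold of 7.54. The window lost 2 of 34 strong regions at 72 h, at -42.3 kb and 1.7 kb, the second of them just past the end of the gene, both with a fold of 7.56 at 0 h.

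A site 84.2 kb downstream of Cebpb (chromosome 2, 167772940 to 167773266, inside Gm32287) had the largest difference in rank of all 138 loci. Its folds were 3.78, 6.78 and 68.7 at 0, 6 and 72 h, and its ranks 2.65, 18.0 and 87.6. If the caller formed folds from fragment counts as the even grid of the values implies, the summit held 4, 8 and 87 fragments at these times. It was low at 0 h and 6 h and stood with the tallest downstream sites at 72 h.

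Rank was higher at 72 h than at 0 h by at least 20 points at 11 of the 41 Cebpb loci (26.8%), against 16.3% of all 98083 loci, and lower by as much at 2 of 41, against 16.1%. Of the 11 loci, 6 lay downstream and 5 upstream. At 46.2 kb downstream the folds were 5.29, 9.8 and 28.1 at 0, 6 and 72 h, and the ranks 11.4, 33.3 and 69.4. At 52.0 kb downstream, inside Gm52570, the folds were 6.8, 13.6 and 40.6 and the ranks 21.1, 46.9 and 77.9. At 28.5 kb they were 4.54, 5.27 and 22.6 with ranks of 6.65, 9.15 and 63.6. Each of these sites was low at 0 h and in the upper part of the ranking at 72 h.

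Closer to Cebpb, the site 12.8 kb downstream had folds of 3.02, 5.27 and 17.2 at 0, 6 and 72 h and ranks of 0.484, 9.15 and 55.2. Upstream, a site at -29.6 kb inside Tmem189 had folds of 6.05, 9.8 and 29.7 and ranks of 16.4, 33.3 and 70.7, and one at -55.8 kb had folds of 3.02, 6.03 and 16.4 and ranks of 0.484, 13.6 and 53.7. The remaining rank differences past 20 points were 27.2 at 21.2 kb downstream, 37.3 at -1.79 kb, 39.1 at -8.03 kb and 38.4 at -100 kb, where the locus crosses the edge of the window.

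The tallest sites of the Cebpb window were listed at all 3 times. The site 86.4 kb downstream, the highest of the window at 0 h and 72 h, had folds of 80.9, 80.6 and 162 at 0, 6 and 72 h and ranks of 93.9, 92.0 and 97.8. At 71.2 kb downstream the folds were 55.2, 77.6 and 115 and the ranks 88.6, 91.5 and 94.6. At 65.2 kb they were 59.0, 86.7 and 99.1 with ranks of 89.6, 92.9 and 92.8. Upstream, the site at -39.4 kb inside Tmem189 had folds of 68.8, 87.4 and 144 and ranks of 91.8, 93.0 and 96.8, and that at -99.4 kb had ranks of 91.5, 92.7 and 92.6. The site at -56.9 kb lies at the edge of the Ube2v1 span that faces Cebpb. It was the next highest of the window at 0 h after that at 86.4 kb. Its folds were 71.1, 70.8 and 42.2 and its ranks 92.2, 90.3 and 78.7. Lower at 72 h as well were a site 24.3 kb downstream with folds of 46.1, 39.2 and 21.9 and ranks of 85.4, 80.1 and 62.6, and its neighbour at 28.1 kb with ranks of 68.9, 57.8 and 48.7, the 2 loci that ranked lower by at least 20 points at 72 h. The median rank difference between 72 h and 0 h was 6.04 points over the 41 Cebpb loci and -0.917 over all loci.

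**Figure D2:**
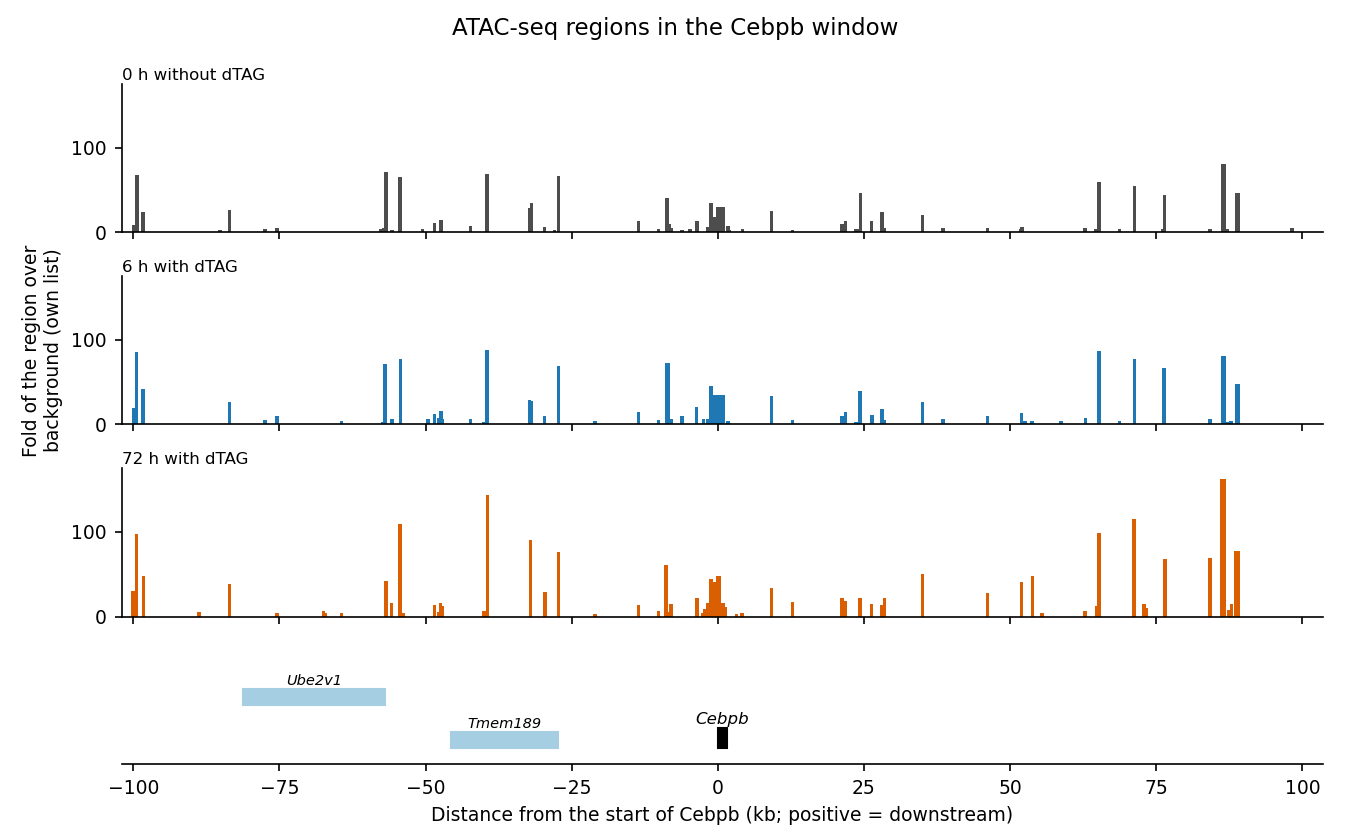
Each bar is a listed region in the Cebpb window at its distance from the gene start in kb, with its height the fold over background within its own list, for 0 h without dTAG, 6 h with dTAG and 72 h with dTAG (1 library each); boxes below are coding-gene spans. The bars at 53.8 kb and 84.2 kb stand at 48.4 and 68.7 at 72 h, while the tall sites at 65.2, 71.2 and 86.4 kb are present in all 3 lists.

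At 6 h the ranks around the 5 genes were close to those of 0 h. Over all 5 windows 5 of 138 loci (3.62%) ranked at least 20 points higher at 6 h, against 4.21% of all loci, and 5 (3.62%) ranked as much lower, against 4.45%. Of the 5 higher loci, 4 lay in the Cebpb window, at 46.2 and 52.0 kb downstream and at -75.4 and -100 kb. At 72 h, 23 of 138 loci (16.7%) ranked higher and 10 (7.25%) ranked lower. The share that ranked higher was thus near that of the whole list, and Cebpb held 11 of the 23.

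The start of Cebpa was the highest region of its window at all 3 times. Of 32 loci, 5 ranked higher and 5 ranked lower at 72 h by 20 points or more, each 15.6%, near the 16.3% and 16.1% of all loci, and the median difference was -0.597 points. The sites that ranked lower included a neighbour of the locus that lies at the distance of the known downstream enhancer. That locus, centred 37.5 kb downstream (chromosome 7, 35156484 to 35157095, inside the noncoding gene Gm35889), had folds of 56.7, 52.7 and 29.7 at 0, 6 and 72 h and ranks of 89.0, 85.8 and 70.7. The difference of -18.3 points between 72 h and 0 h falls just short of 20. Its neighbour 38.4 kb downstream had folds of 18.1, 12.8 and 7.03 and ranks of 60.3, 44.6 and 24.

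Further from Cebpa, the site at -32.5 kb in the noncoding gene Gm35611 had folds of 34.0, 30.1 and 10.9 at 0, 6 and 72 h and ranks of 79.1, 73.9 and 40.3. A site at -54.6 kb had folds of 12.9, 12.8 and 3.12 and ranks of 47.2, 44.6 and 0.947, next to the lowest end of the 72 h list. The other loci that ranked lower were at -93.2 kb, with ranks of 82.7, 71.1 and 60.3, and 0.83 kb inside the gene, with ranks of 33.0, 2.01 and 4.21. This last locus was the 1 of the Cebpa window that ranked lower by 20 points at 6 h as well.

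Of the 5 Cebpa loci that ranked higher at 72 h, 4 lay between 2.16 and 31.7 kb downstream. The site 20.8 kb downstream had folds of 3.78, 5.27 and 18.7 at 0, 6 and 72 h and ranks of 2.65, 9.15 and 57.9. The site at 31.7 kb had folds of 12.9, 15.8 and 35.1 and ranks of 47.2, 53.0 and 74.8. At 8.01 kb the folds were 21.2, 23.4 and 64.8 and the ranks 65.6, 66.6 and 86.7, which made it one of the 3 highest regions of the window at 72 h, after the starts of Cebpa and Cebpg. The other 2 loci were at 2.16 kb inside the gene, with ranks of 6.65, 26.2 and 46.8, and at -20.3 kb, with ranks of 25.3, 18.0 and 63.6.

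Among the tall downstream sites of Cebpa, that at 52.8 kb had folds of 67.3, 60.3 and 51.5 at 0, 6 and 72 h and ranks of 91.5, 88 and 82.6, and that at 50.3 kb had ranks of 80, 75.8 and 74.3. The window lost 2 of 28 strong regions at 72 h and gained none. A site 13.8 kb downstream counts neither as gained nor as a ranked locus. It had a fold of 4.54 at 0 h, was not listed at 6 h and had a fold of 29.7 at 72 h. The 2 lost regions, with folds of 8.32 and 9.07 at 0 h, stood at -59.6 kb and -3.0 kb, and the region at -3.0 kb was also the only strong loss at 6 h. In the Cebpg window, which shares these sites, 1 more strong region was lost at 72 h, 70.8 kb downstream in Pepd with a fold of 6.8 at 0 h. Beside it, a site 71.8 kb downstream of Cebpg had folds of 21.9, 15.8 and 7.81 and ranks of 66.7, 53.0 and 28.0.

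**Figure D3:**
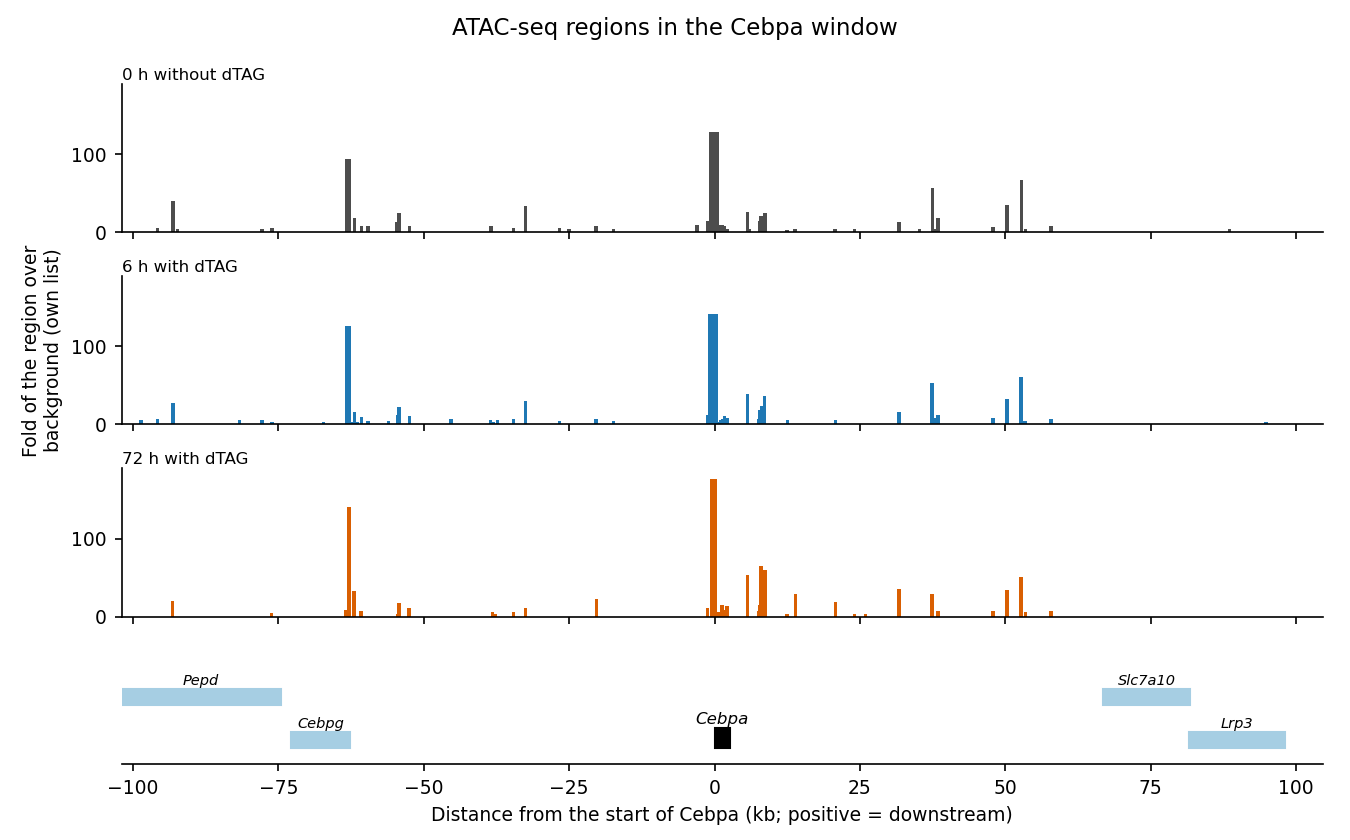
Each bar is a listed region in the Cebpa window at its distance from the gene start in kb, with its height the fold over background within its own list, for 0 h without dTAG, 6 h with dTAG and 72 h with dTAG (1 library each); boxes below are coding-gene spans. The start of Cebpa is the highest bar at each time (129, 141 and 176), the bar near 37.5 kb stands at 56.7, 52.7 and 29.7, and a bar at 20.8 kb stands at 18.7 at 72 h.

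The largest lower rank of the 138 loci was downstream of Cebpe. A locus centred 6.19 kb downstream of its start (chromosome 14, 54705711 to 54706254), in the stretch between Cebpe and the next coding gene and at the distance of the known Cebpe enhancer, had folds of 50.6, 58.0 and 7.81 at 0, 6 and 72 h. Its ranks were 87.1, 87.4 and 28.0. The region was 534, 527 and 293 bp long at 0, 6 and 72 h, and on the grid of fold values its summit held 66, 76 and 9 fragments. It was high at 0 h and 6 h alike and low, though still listed, at 72 h.

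The sites on either side of it differed less between the times. The locus 5.43 kb downstream of Cebpe had folds of 30.2, 24.9 and 24.2 at 0, 6 and 72 h and ranks of 76.2, 68.6 and 65.4. The locus 10.7 kb downstream had folds of 50.6, 43.0 and 32.8 and ranks of 87.1, 82.0 and 73.2. Inside the gene, a locus 1.42 kb from the start had ranks of 60.3, 13.6 and 61.5, low at 6 h alone. The other Cebpe locus that ranked lower at 72 h was at -69.1 kb in Slc7a8, an amino acid transporter gene, with folds of 27.2, 12.8 and 6.25 and ranks of 73.4, 44.6 and 19.5.

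Of the 44 Cebpe loci, 4 ranked higher at 72 h by 20 points or more (9.09%, against 16.3% of all loci) and 2 lower (4.55%, against 16.1%). At 95.9 kb downstream, within the proteasome subunit gene Psmb5, the folds were 17.4, 35.4 and 72.6 at 0, 6 and 72 h and the ranks 58.7, 77.9 and 88.5. The other 3 stood at 93.9 kb downstream, where the rank difference was 20.6, at -42.0 kb (26.8) and at -96.7 kb (35.6). Of the tall sites of the window, that at -56.4 kb in Slc7a8 had folds of 24.9, 36.2 and 80.4 and ranks of 70.8, 78.4 and 90.0, a difference between 72 h and 0 h just under 20 points. The site 58.5 kb downstream in Acin1 had folds of 64.3, 64.0 and 76.5 and ranks of 90.9, 88.9 and 89.3, and that at 70.6 kb had ranks of 86.6, 88.4 and 83.5. The window lost 2 of 40 strong regions at 72 h, at 92.1 kb downstream and at -80.2 kb, with folds of 9.07 and 6.8 at 0 h. It gained 1 of 37, at 24.3 kb downstream with a fold of 10.9, also listed weakly at 6 h.

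The Cebpd window held the fewest regions. None of its 19 loci ranked lower by 20 points at 72 h, against 16.1% of all loci, and 3 (15.8%) ranked higher, near the 16.3% of all loci. The first of the 3, at 3.49 kb downstream, lay inside the Spidr span, near its edge that faces Cebpd. Its folds were 15.1, 18.8 and 39.8 at 0, 6 and 72 h and its ranks 53.4, 59.3 and 77.5. The others were a site at -24.9 kb with ranks of 21.1, 18.0 and 50.5, and a site 99.1 kb downstream with ranks of 11.4, 9.15 and 37.6. The next tallest site after the Cebpd start, at -24.1 kb by Mzt2, had folds of 71.1, 67.1 and 66.4 and ranks of 92.2, 89.5 and 87.1. The site 61.1 kb downstream had folds of 34.0, 39.2 and 31.2 and ranks of 79.1, 80.1 and 72.0. One strong region of 17 was lost at 72 h, 24 kb downstream with a fold of 9.83 at 0 h, and none was gained. The median rank difference between 72 h and 0 h over the Cebpd loci was -5.16 points.

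**Figure D4:**
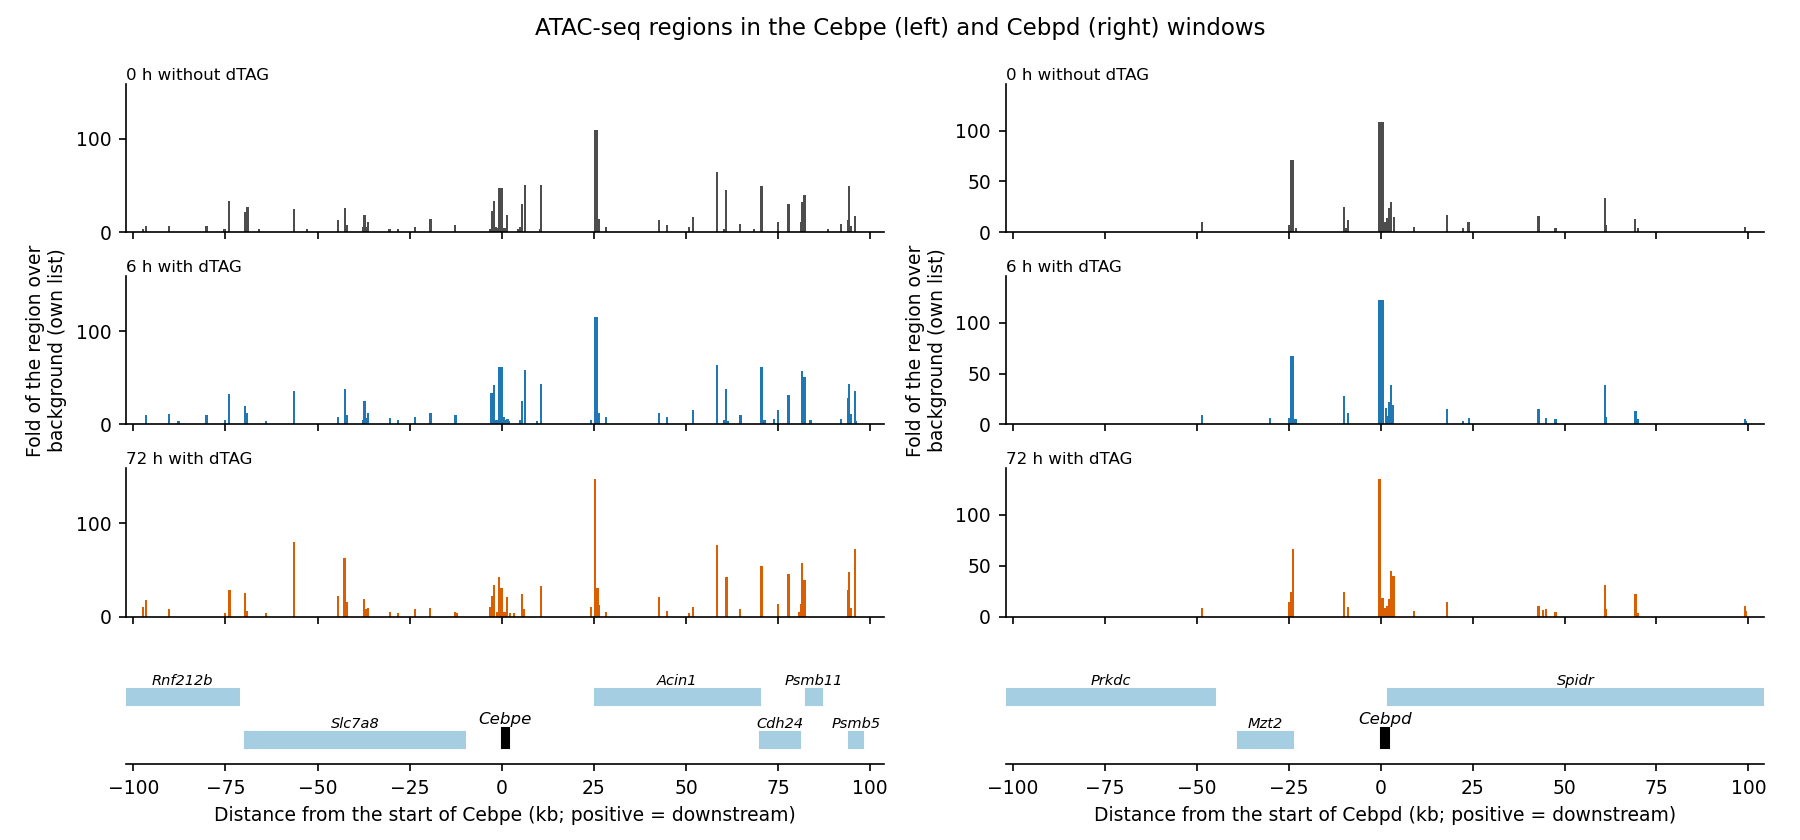
Each bar is a listed region in the Cebpe window (left) or the Cebpd window (right) at its distance from the gene start in kb, with its height the fold over background within its own list, for 0 h without dTAG, 6 h with dTAG and 72 h with dTAG (1 library each). The bar 6.19 kb downstream of Cebpe stands at 50.6, 58.0 and 7.81, while the start of Cebpd stays the highest bar of its window at 108, 122 and 135.

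**Figure D5:**
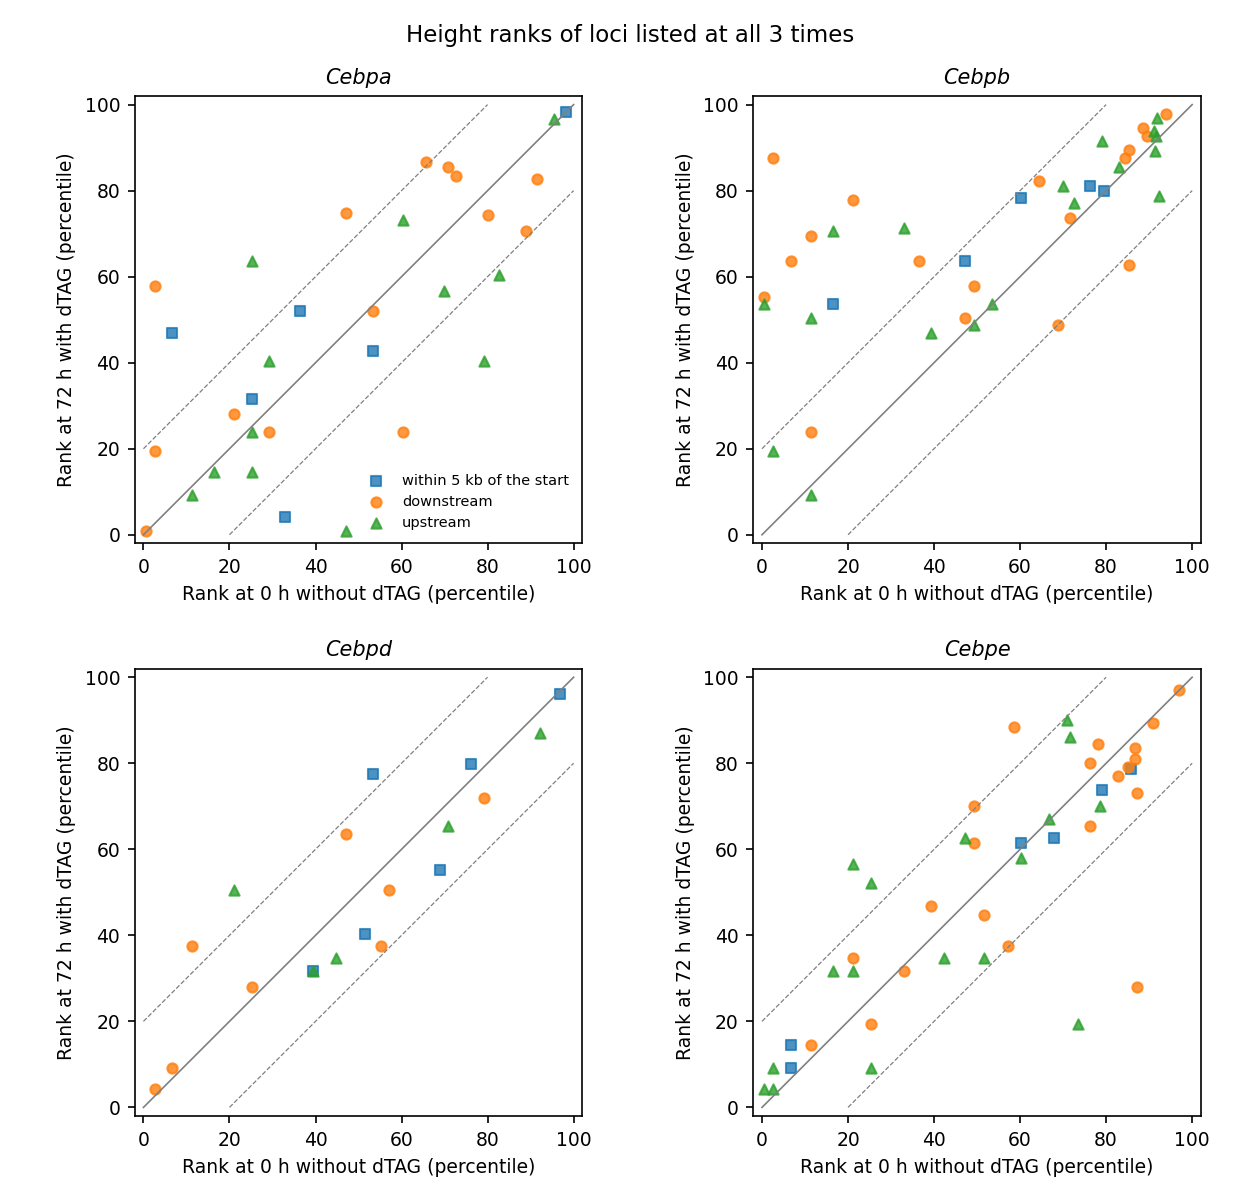
Each point is a locus listed at all 3 times, with its height rank at 0 h without dTAG on the x axis and at 72 h with dTAG on the y axis (percentiles among 98083 loci, 1 library per time); the solid line marks equal ranks and the dashed lines 20 points. Points of Cebpb lie above the upper dashed line at 11 loci and below the lower one at 2. The Cebpe point farthest below the line of equal ranks is the site 6.19 kb downstream (28.0 at 72 h, 87.1 at 0 h).

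Genes known to act with or on C/EBP proteins, and genes known as C/EBP targets in myeloid cells, were counted over their spans plus 10 kb on each side. A region shared by neighbouring genes of a list counts for each of them. The 25 partner and regulator genes held 355, 350 and 335 regions at 0, 6 and 72 h. At 72 h, 9 (36.0%) held more regions than at 0 h, 13 held fewer and 3 as many, against 20.7% with more and 52.3% with fewer among all coding genes. They had 16 strong regions lost in 13 genes and 8 gained in 7 genes at 72 h. Genes with a strong loss were 52.0% of the list, against 36.4% of all coding genes, and genes with a strong gain 28.0%, against 17%. Such shares depend on the number of regions per gene, so they do not show more losses or gains per region. Across all coding genes, 12592 losses stood beside 181410 regions counted for 0 h, and 5235 gains beside 154945 for 72 h. In the list, 16 losses stood beside 355 regions and 8 gains beside 335, fewer per region in both cases. At 6 h, 9 had more and 14 had fewer than at 0 h, against 29.9% and 36.2% of all coding genes. The median difference in regions between 72 h and 0 h was -1.0 in the list and -1.0 over all coding genes. The ratio of the list's regions at 72 h to those at 0 h was 0.944, and 1.21 when only folds of at least 10 were counted. For the second ratio no value over all coding genes with the same stretches is at hand.

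The partner genes with the largest surplus at 72 h were Gfi1, which encodes a transcriptional repressor, and Runx1, a partner of C/EBPα. Gfi1 had 18, 21 and 25 regions at 0, 6 and 72 h and Runx1 51, 54 and 58. Trib3 had 6, 9 and 11 and Nfil3 14, 12 and 18. The largest deficits were at Atf4, a dimer partner of C/EBPγ, with 22, 16 and 11, and at Id1, with 18, 13 and 9. Batf2 had 8, 6 and 2 regions, and Fos and Trib1, an adaptor for the breakdown of C/EBPα, had 18, 17 and 13 and 19, 16 and 14.

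Of the 25 target genes 24 were matched, and Azu1 was not. They held 242, 265 and 250 regions at 0, 6 and 72 h. At 72 h, 13 had more regions (54.2%), 8 fewer (33.3%) and 3 the same number, against 20.7% with more and 52.3% with fewer among all coding genes. They had 18 strong gains in 12 genes and 11 strong losses in 5 genes. Of these losses, 3 were counted at Elane and 4 at Prtn3, whose stretches overlap, so shared regions count for both. Genes with a strong gain were 50% of the list, against 17% of all coding genes, and genes with a strong loss 20.8%, against 36.4%. These shares too depend on the number of regions per gene. In the list, 18 gains stood beside 250 regions counted for 72 h, against 5235 beside 154945 across all coding genes, more per region. The 11 losses stood beside 242 regions counted for 0 h, against 12592 beside 181410, fewer per region. Neither difference was tested. At 6 h, 13 had more (54.2%) and 5 had fewer (20.8%), against 29.9% and 36.2% of all coding genes. The median difference between 72 h and 0 h was 1.0 in this list.

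The target genes with the largest surplus at 72 h were S100a8, Mmp8 and Mmp9, followed by Il6ra, Itgam and Ltf with equal differences. S100a8, which encodes a calcium-binding protein of neutrophils and monocytes, had 7, 8 and 15 regions at 0, 6 and 72 h. Mmp8 and Mmp9, which encode neutrophil collagenase and gelatinase, had 8, 14 and 15 and 11, 12 and 16. Il6ra had 17, 23 and 21, the integrin gene Itgam 12, 15 and 16 and the lactoferrin gene Ltf 5, 5 and 9. The largest deficits were at Elane and Prtn3, neighbouring genes of primary granule proteases whose loci overlap, with 24, 20 and 13 and 27, 23 and 16. Ccl3 had 12, 13 and 9 and Csf3r, the receptor gene for G-CSF, 11, 9 and 8.

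Marker genes of the labelled cell type were accessible. Regions near an end of the gene were listed for 9, 9 and 8 of 10 myeloid progenitor markers at 0, 6 and 72 h, with 170, 166 and 160 regions in all. Mpo had none near an end at any time. Kit, the stem cell factor receptor, had 7 and 5 regions at 0 h and 6 h and was at 0 at 72 h. Neutrophil markers had an end region at 7, 7 and 8 of 8 genes, with 50, 61 and 81 regions. Monocyte or macrophage markers had one at 5, 4 and 4 of 6, with 35, 36 and 61 regions, of which 13, 13 and 42 were at Adgre1. The part of these markers in the results for the C/EBP genes was not tested. The other lists had end regions at 2, 3 and 3 of 5 erythroid or megakaryocyte genes (27, 27 and 20 regions), 4, 3 and 3 of 5 lymphoid genes (45, 42 and 25), 1, 2 and 0 of 3 mast or basophil genes (6, 7 and 3) and 4, 3 and 2 of 4 non-blood genes (32, 23 and 15). Hbb-bs and Fcer1a were at 0 at all times.

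Some genes outside the windows had nearly the same 5 counts as a member, namely regions at 0, 6 and 72 h and strong regions lost and gained at 72 h. For Cebpb the nearest was Uevld, with 62, 61 and 66 regions, 2 lost and 6 gained, at a summed difference of 5, followed by Ap1m1 and Cap1 at 6. For Cebpa they were Dennd1c and Slc25a23 at 2 and Arhgap19 at 3, and for Cebpg Polr2b at 1, Zrsr1 at 2 and Aldh3a1 at 3. For Cebpd Gpr83 matched all 5 counts, and B3galnt2 and Ccp110 differed by 2. For Cebpe Timp2, Tssk4 and Xrra1 each differed by 2.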

How the data were processed

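ATAC-seq was run on 1 mouse cell line, with 3 libraries, 1 per time. The authors deposited 1 region list per library. Per the submitters' processing notes, BWA 0.7.17, MACS2 2.2.7 and bedtools 2.30.0 were among the tools and mm10 was the build. Options, the treatment of duplicates and any read shift were not given in the sources used here, so their effect on region length cannot be stated. Each deposited line holds a position, a display score (not used), a fold (the ratio of summit to background) and −log10 values of the p-value (not used) and of the q-value. Read totals were not used here. On the even grid of the deposited folds the background was 0.323, 0.327 and 0.281 fragments at 0, 6 and 72 h, and the lowest listed summit 3 fragments, so weak sites can be missing from a list.

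Regions were matched across lists by at least 1 bp of overlap, with Python 3.11.15, pandas 2.3.3 and scipy 1.17.1. Strong regions had a −log10 q of at least 7.82, 9.25 and 13.0 at 0, 6 and 72 h. The overlap steps were tested on simulated lists. Gene spans, without strand or exons, came from RefSeq. All 5 members are named, with the 3 highest regions of each list in each window and each strong region lost or gained. Regions on or within 1 kb of a gene are counted, and not all of them are described. Loci past 20 rank points, and 1 site of Cebpa not listed at 6 h, were named in addition, after their values were seen. For the other lists the 4 genes with the largest difference each way are named, ties included. Likeness is the smallest sum of absolute differences over 5 counts, predicted genes left out. The members and lists were chosen with earlier results of these data known.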

Additional observations from a re-analysis of the deposited data

How the results depend on the processing

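Of 64 values recomputed under other settings, 35 stayed within 1.5 times the reported count or within the interval of the reported ratio, and 29 moved further; the cause was not tested. With 10 kb flanks the 5 windows held 62, 59 and 60 regions at 0, 6 and 72 h, with 0 strong gains at 6 h and 3 losses and 1 gain at 72 h. With 50 kb flanks there were 5 losses and 3 gains at 72 h. Counting only folds of at least 10 gave 92, 95 and 116 regions, so that the windows held more at 72 h than at 0 h in place of fewer. The whole lists changed direction in the same way. They held 182233, 178055 and 145044 regions at 0, 6 and 72 h, of which 66637, 69502 and 71819 had such a fold. With strong defined by that fold, there were 0 losses and 0 gains at 6 h, and 0 losses and 6 gains at 72 h. With strong defined by a −log10 q of at least 10, there were 1 loss and 0 gains at 6 h. The same limit gave 4 losses and 8 gains at 72 h. Lists of equal length gave 160, 185 and 193 regions at 0, 6 and 72 h, 2 losses at 6 h, and 3 losses and 14 gains at 72 h, 10 of the gains in the Cebpb window. With regions within 200 bp merged there were 4 gains at 72 h, 3 of them at Cebpb. Shares of the whole list were not set beside the losses and gains of these alternatives.

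Some alternatives were added after the data had been seen. A rank limit of 30 points left 0 of the 138 loci higher and 2 lower at 6 h, and 14 higher and 6 lower at 72 h. Shares of all loci are not at hand for this limit, so these counts have no background beside them. Counting only folds of at least 10, the ratio of 72 h to 0 h was 1.21 for partner genes (0.944 over all regions) and 1.24 for target genes (1.03). No value over all coding genes with the same stretches is at hand for that fold. With broad set at 500 bp, 1 region lay in pieces at 6 h and 7 did at 72 h. Neither the number of regions of that length nor a share of the whole list is at hand for this setting. No paired analysis was possible because each time has 1 library, and no replicate could be left out. Read totals were not used here; the lowest listed summits held 3 fragments, so signal below that is not seen in these lists.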
